A study of Drosophila melanogaster with 11 samples.

Results

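The 4 arrays of smg material aged 2 to 3 h, among 11 arrays in the series, set its RNA against RNA of mature wild-type oocytes. They were taken by their titles, and a gene was tested when at least 3 of the 4 arrays measured it, which 6112 of 6793 named genes did. All 4 smg arrays measured 3598 genes. The groups beside them were wild-type (w1118) embryos aged 2 to 3 h (4 arrays) and w1118 unfertilized eggs aged 4 to 6 h (3 arrays), and w1118 stage 14 oocytes filled the other channel of every array. The source label reads SMG on smg replicates 1 to 3 and SMGoverDf on smg replicate 4. It names neither an allele nor the parents, and it does not write the word embryo, so smg embryos is used here as a short name. No label says whether the arrays of a group came from separate collections, and p-values therefore cover only the spread from array to array, which may be technical.

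An egg is loaded by its mother with transcripts that run the first divisions. In the maternal-to-zygotic transition many of these are destroyed while the embryo's own genes switch on. Smaug is an RNA-binding protein that represses the translation of maternal transcripts and recruits the CCR4-NOT deadenylase, which shortens their poly(A) tails and so leads to their decay. The arrays ask which oocyte transcripts are lower, which stay near their level, and which are higher in smg embryos at an age when wild-type embryos have begun zygotic transcription.

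Values are log2 ratios to oocytes minus the gene median of their array, so that 0 stands for the median gene and not for an unchanged amount of RNA per embryo. A whole embryo mixes many cells, so fewer cells of a type and less RNA per cell cannot be told apart. As deposited, the gene median was -4.43 on smg replicate 1 and -4.01 on wild-type replicate 1, while the other 6 arrays at 2 to 3 h lay within -0.15 to 0.14. Spots with a value made up 51.1% on smg replicate 1 and 83.0% to 97.6% on the other 3 smg arrays. The slide numbers in the titles part the arrays into later slides (replicates 3 and 4) and earlier slides (replicates 1 and 2), in smg as in wild type, and the 2 sets are given apart throughout.

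The 2 slide sets of smg did not resemble each other. Across genes, which are not independent replicates, smg replicate 3 correlated with smg replicate 4 at r = 0.76 (6278 genes), with smg replicate 1 at r = -0.51 (3837 genes) and with smg replicate 2 at r = -0.34 (5827 genes). Smg replicate 4 also correlated negatively, at r = -0.17 with smg replicate 1 and r = -0.12 with smg replicate 2, and its sign was not turned. The earlier smg replicates 1 and 2 correlated at r = 0.47. Smg replicate 1 correlated more closely, at r = 0.79 (3720 genes), with wild-type replicate 1, the other array with a low deposited median. Ratios were read as sample over oocyte, the order in which titles name the 2 RNAs, but no source states the numerator, and negative correlations of this size leave the direction of smg replicate 3 unsettled. The main counts are therefore also given with its sign turned. On that array the yolk protein genes lay below the median and the gap gene Kr above it, the same sides as on the other arrays that measured them.

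The smg gene itself, with 4 spots, stood at 2.02 and 0.21 on the later smg slides and at -2.66 and -1.18 on the earlier ones. Wild-type embryos had -1.44 and -1.12 on later slides and -2.60 and -0.77 on earlier ones. The later smg slides thus lay above all wild-type arrays while on earlier slides smg replicate 1 lay below all of them and smg replicate 2 among them. Its smg mean was -0.41 ± 1.99 (SD, n = 4), which did not pass the test (adjusted p = 0.841). Where the lesion lies in the gene is not in the labels, so these spots check no genotype.

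Of the embryonic marker genes, Kr, kni, gt, twi and Sry-alpha were among the named spots, and 0 of these 5 were called in smg against oocytes. Their median was 1.13 and 0.58 on the later smg slides and 0.91 and 0.22 on the earlier ones, against 1.19 and 2.06 on later and 1.82 and 1.60 on earlier wild-type slides. Kr and Sry-alpha had no value on smg replicate 1 or wild-type replicate 1. The medians of 0.91 and 1.82 there rest on fewer genes and do not compare like with like. Of 12 follicle cell and eggshell markers, 0 were among the named spots, so follicle cell RNA in the oocyte channel could not be checked. The 3 yolk protein genes, made by fat body and follicle cells, were below the median on every smg array.

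Against oocytes, limma called 5 of 6112 genes in smg embryos at an adjusted p under 0.05 (0.0818%), 4 lower (0.0654%) and 1 higher (0.0164%). Unadjusted, 635 genes had a p under 0.05, 470 higher and 165 lower, and the median of all tested genes was 0.13. With arrays centred on the genes that all of them measured, the unadjusted split turned to 167 higher and 426 lower, and the median was -0.17. The 4 that fell were 2 yolk protein genes, Yp1 and Yp3, the oligopeptide transporter gene yin, and exu, whose protein helps to place bicoid RNA in the oocyte. 

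Yp1, which encodes a yolk protein taken up by the oocyte, stood at -3.01 and -4.17 on the later smg slides and at -3.39 and -3.33 on the earlier ones. Wild-type embryos had -3.61 and -3.22 on later and -3.62 and -4.23 on earlier slides. The smg and wild-type ranges overlapped, and no smg array was nearer to the median than -3.01. The smg mean was -3.47 ± 0.49 (SD, n = 4; SE of the fit 0.27, adjusted p = 1.17e-04), and Yp1 was the 1 gene still called when the 4 smg arrays were fitted alone (adjusted p = 0.0128).

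The transcript of yin was at -1.66 and -2.96 on the later smg slides and at -4.20 and -3.35 on the earlier ones, against -3.48 and -3.70 on later and -4.44 and -4.10 on earlier wild-type slides. For exu the values were -1.56 and -3.36 on later and -3.79 and -3.08 on earlier smg slides, against -3.61 and -3.05 on later and -3.78 and -4.57 on earlier wild-type slides. In both genes smg replicate 3 was the array closest to the median. The other smg arrays lay within the wild-type range for exu, and for yin only smg replicate 1 did. The means were -3.04 for yin (SE 0.36, adjusted p = 0.00519) and -2.95 for exu (SE 0.36, adjusted p = 0.00522). Without smg replicate 2, Yp1 was the only one of the 5 genes called.

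Yp3 gave -1.75 and -2.71 on later and -1.06 and -1.75 on earlier smg slides, with -2.0 and -2.51 on later and -2.34 and -2.71 on earlier wild-type slides. Its smg mean was -1.82 (SE 0.29, adjusted p = 0.0424), and its spots differed by as much as 2.29 on 1 smg array. Yp2, the other yolk protein gene, was below 0 on every smg array, at -1.20 and -1.80 on later and -0.64 and -0.95 on earlier slides, and did not pass the test (adjusted p = 0.257). The receptor that takes yolk proteins into the oocyte is encoded by yl, which lay at 1.26 and 0.83 on the later smg slides and at -0.16 and -0.03 on the earlier ones. So the 3 yolk protein genes were low on all 4 smg arrays, while their receptor gene was not.

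The 1 gene that rose was CG8960, at 2.22 and 2.65 on the later smg slides and 2.11 on the earlier smg replicate 2, with no value on smg replicate 1. The 2 wild-type arrays that measured it gave 3.29 on a later and 3.77 on an earlier slide, both above all smg values. Its smg mean was 2.33 (SE 0.31, adjusted p = 0.0424), and it had too few wild-type values for a test between the genotypes. With the sign of smg replicate 3 turned, limma called 0 genes in smg against oocytes, and 492 had an unadjusted p under 0.05, 83 higher and 409 lower.

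**Figure D1:**
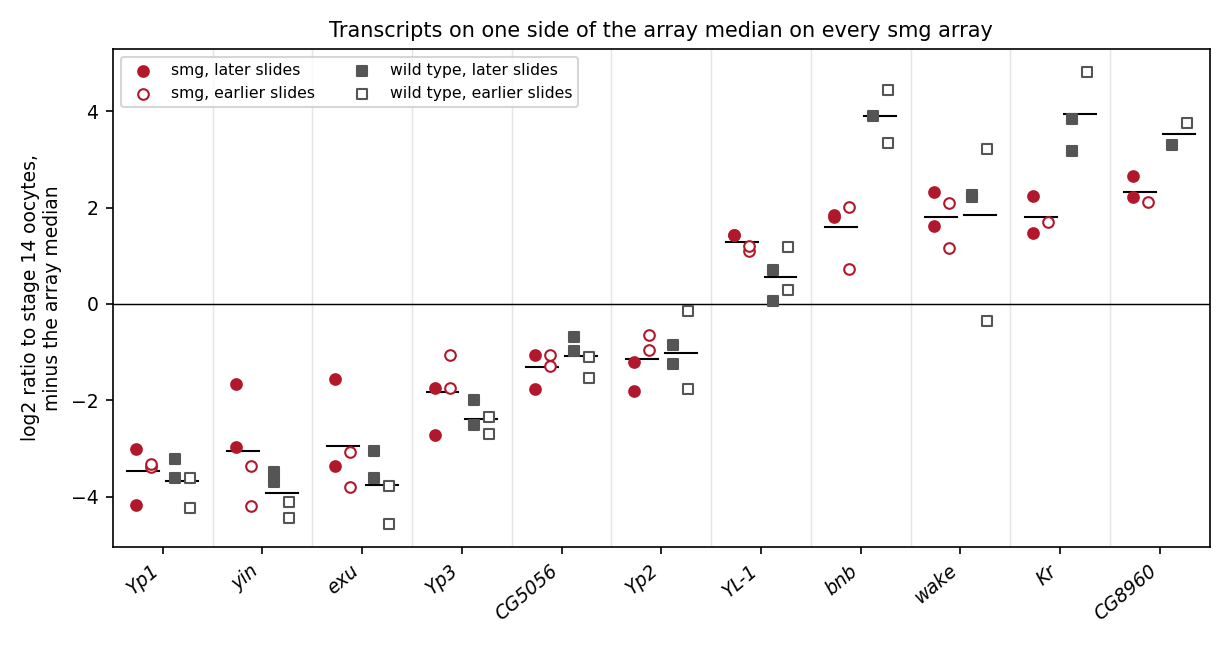
Log2 ratio to oocytes minus the array median (vertical axis) for 11 genes (horizontal axis), with 1 point per array and a bar at the mean of each group. The smg arrays are red circles and the wild-type arrays grey squares, filled for later and open for earlier slides. Yp1 lay between -4.17 and -3.01 on the 4 smg arrays, and bnb, Kr and CG8960 were above 0 in smg but below every wild-type array that measured them. Overlap was not counted over all genes.

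A count that uses no model of the spread gives the same few genes at the low end. It uses the same arrays and values as the test, so this is no separate check. Of the 3598 genes measured on all 4 smg arrays, 5 (0.139%) were below -1 on each, namely Yp1, Yp3, exu, yin and CG5056, of which the last was named after its values were seen. CG5056 stood at -1.06 and -1.77 on later and at -1.07 and -1.29 on earlier smg slides. Those above 1 on each array were 2 genes (0.0556%), wake and YL-1. Below 0 on all 4 arrays were 119 genes (3.31%), and above 0 on all 4 were 460 (12.8%). This balance depended on the setting, with 338 below and 291 above when arrays were centred on the median of the 3393 genes that all 8 arrays measured (the shared centre), and 228 below and 163 above once smg replicate 3 had its sign turned.

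The gene wake, known for its part in sleep onset in clock neurons, was at 2.33 and 1.62 on later and at 2.10 and 1.17 on earlier smg slides. In wild type it was at 2.22 and 2.27 on later slides and at -0.35 and 3.21 on earlier ones. The smg values lay within the wild-type range, and the mean of 1.81 (SE 0.46) did not pass the test (adjusted p = 0.243). YL-1 encodes a subunit of a histone-exchange complex. It was nearly level across smg arrays, at 1.42 and 1.44 on later and 1.10 and 1.21 on earlier slides, against 0.05 and 0.70 on later and 1.18 and 0.29 on earlier wild-type slides. Its mean of 1.29 (SE 0.26) had an adjusted p of 0.120.

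Fitting the slide set as a block raised the calls to 33, of which 12 were higher and 21 lower, and all 5 genes above were among them. Of the 21 lower genes 20 were below 0 on every smg array that measured them. The exception was Dna2, a replication nuclease, at 0.03 on smg replicate 3. Lying on 1 side follows largely from being called in this fit, for the higher genes too, and adds no evidence. Beyond the 4 above the lower genes included the cytochrome P450 gene Cyp6a19 (-2.04), the glutathione-metabolism gene Ggt-1 (-1.75), NAT1, which acts in translation initiation (-1.69), and the splicing regulator tra2 (-1.67). The tra2 transcript was at -0.60 and -1.99 on later and -1.85 and -2.24 on earlier smg slides, against -1.48 and -1.04 on later and -1.25 and -1.66 on earlier wild-type slides. The groups overlapped there too.

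All 12 higher genes of that fit were above 0 on every smg array that measured them. Kr, a gap gene of the early embryo, was at 1.47 and 2.24 on later slides and 1.71 on smg replicate 2, and wild-type embryos had 3.17 and 3.85 on later slides and 4.82 on an earlier one. Each smg value of Kr was therefore above the array median and below each wild-type value. The same held for bnb, which is expressed as the nervous system forms, at 1.81 and 1.84 on later and 2.02 and 0.73 on earlier smg slides, against 3.90 on a later and 4.44 and 3.33 on earlier wild-type slides. Block estimates were 1.90 for Kr and 1.60 for bnb, each with an adjusted p of 0.0260. Without the block neither passed (adjusted p = 0.189 and 0.112). Without it the limma differences from wild type did not pass either (adjusted p = 0.154 for Kr and 0.0857 for bnb). Overlap of the genotypes was not counted over all genes. The ribosomal protein gene RpL39 (1.49), the fatty acid synthase gene FASN3 (1.33) and Arc1, a capsid-forming relative of a retroviral gag protein (1.39), were called with them.

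Within 1 log2 unit of the array median on all 4 smg arrays were 991 of 3598 genes (27.5%). These outnumbered the genes below -1 or above 1 on all 4, but most of the 3598 genes fell in none of these classes. In wild type 1908 of 3772 genes (50.6%) were within 1 on every array. The 12 named genes with the smallest excursion never moved beyond 0.32 on any smg array. The closest was DCTN2-p50, a dynactin subunit, at 0.15 and 0.12 on later and -0.12 and -0.14 on earlier smg slides. It was followed by ATP8A, a lipid flippase, at 0.05 and -0.18 on later and 0.13 and -0.16 on earlier ones. The terminal patterning gene tsl, active in ovarian follicle cells, was at -0.20 and 0.00 on later and 0.15 and 0.06 on earlier slides. The others were Edem2, DENR, Eip78C, Cog6, Vps60, Taldo, Ate1, retm and isoQC, with smg means between -0.15 and 0.11.

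Some of these genes lay lower in wild type. Taldo, the transaldolase of the pentose phosphate pathway, had 0.11 and 0.15 on later and 0.19 and -0.29 on earlier smg slides, against -1.12 and -0.65 on later and 0.09 and -1.55 on earlier wild-type slides. The groups overlapped through wild-type replicate 1, and the difference of 0.85 (SE 0.41) did not pass (adjusted p = 0.523). A mean near the median does not show an unchanged transcript, because the median itself can move and the fitted SE of these genes was between 0.23 and 0.29.

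Many other genes differed between the smg slide sets. Later minus earlier slides, limma called 1317 of 3587 genes in smg (36.7%), 1252 higher (34.9%) and 65 lower (1.81%), and the median difference was 0.81. In wild type the same comparison called 0 of 3725 genes (0.0%), with 79 at an unadjusted p under 0.05. The interaction of genotype and slide set called 0 of 3393 genes (0.0%; smallest adjusted p = 0.335), with 501 at an unadjusted p under 0.05, so no gene was shown to shift between slide sets by a different amount in smg than in wild type.

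The split of these calls rested on how arrays were centred. With the shared centre, a setting chosen for this comparison after seeing the data, 765 genes were called, 303 higher and 462 lower on later slides, and the median difference was -0.02. That centre shifts the difference of every gene by the same amount, and among the 1317 genes 0 changed sign. A shift of that size could hardly turn a called gene, so this is no separate check. Once smg replicate 3 had its sign turned, 0 genes were called and 26 had an unadjusted p under 0.05, so each slide-set count here, those of gene lists included, rests on the direction of that array as read. The direction of a gene between slide sets is therefore given with both centres. Smg replicate 4 carries the label SMGoverDf and smg replicate 3 does not, so the label does not follow the slide sets, and genotype details cannot be told apart from arrays within the later set.

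Of the 3598 genes measured on all 4 smg arrays, 1186 (33.0%) were below 0 on both earlier and above 0 on both later slides, and 6.06% did the opposite. Once smg replicate 3 had its sign turned, they numbered 22 and 76 genes. The first pattern went beyond 1 log2 unit on every array in 2 genes, cup and CG15098. CG15098 was named after its values were seen. Cup is a translational repressor that binds the cap-binding protein and acts with Smaug. Its transcript stood at 3.31 and 1.41 on later smg slides and at -1.06 and -4.86 on earlier ones, whereas wild-type embryos had -0.56 and 0.00 on later and -1.54 and -0.76 on earlier slides. The smg sets lay on either side of all wild-type arrays but replicate 1, and differed by 5.32 (SE 0.85, adjusted p = 0.00498), or by 4.49 with the shared centre (adjusted p = 0.0322).

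Also higher on later smg slides, glo, an RNA-binding repressor of maternal messages in the oocyte, was at 3.51 and 2.03 on later and -1.73 and 0.22 on earlier smg slides (difference 3.52, SE 0.69, adjusted p = 0.00498). Wild-type embryos had 1.09 and 1.79 on later and -0.99 and 0.67 on earlier slides. For the opposite pattern, grnd, a tumour necrosis factor receptor gene, was picked after its values were seen. It stood at -1.12 and -1.08 on later and at 2.99 and 0.89 on earlier smg slides (difference -3.04, adjusted p = 0.00498). Cup and glo were higher on later slides with both centres, and grnd was lower with both. Differences this large keep their direction under a common shift, so this is no separate check either.

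**Figure D2:**
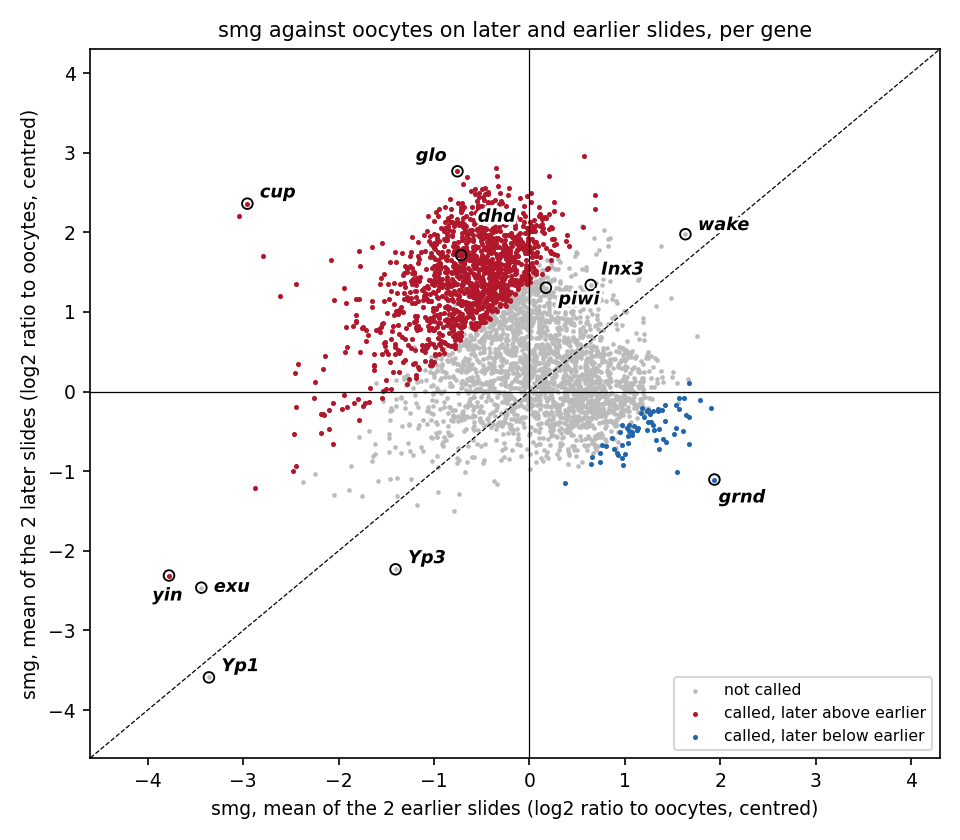
Mean log2 ratio to oocytes, minus the array median, on the 2 later smg slides (vertical axis) against the 2 earlier ones (horizontal axis), with 1 point per gene for 3587 genes and the dashed line at equal values. Red points are the 1252 genes called higher and blue points the 65 called lower on later slides, grey points were not called. Yp1, Yp3, yin and exu lie in the lower left, and cup and glo at the upper left.

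Taken alone in the fit of genotype by slide set, the later smg slides called 1282 of 3587 genes against oocytes (35.7%), 1260 higher (35.1%) and 22 lower (0.613%). The earlier ones called 140 (3.9%), 21 higher (0.585%) and 119 lower (3.32%). With the shared centre the later slides called 338 higher and 264 lower, and the earlier ones 90 higher and 107 lower. Once smg replicate 3 had its sign turned, both called 0, with 0 genes on later and 309 on earlier slides at an unadjusted p under 0.05. Genes with a value on smg replicate 1 had medians of 0.81 and 0.41 on smg replicates 3 and 4 and -0.23 on smg replicate 2. Genes without one had medians of -0.44 and -0.28 on smg replicates 3 and 4 and 0.49 on smg replicate 2. On wild-type replicates 3 and 4 the medians were -0.11 and 0.07 with such a value and 0.10 and -0.12 without. Which genes smg replicate 1 measured thus moved with the sign of the other smg arrays. Without smg replicate 1, limma still called 5 genes against oocytes, 4 lower and 1 higher, while calls against wild type numbered 233, 213 higher and 20 lower in smg. Slide-set counts were not made without it.

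**Figure D3:**
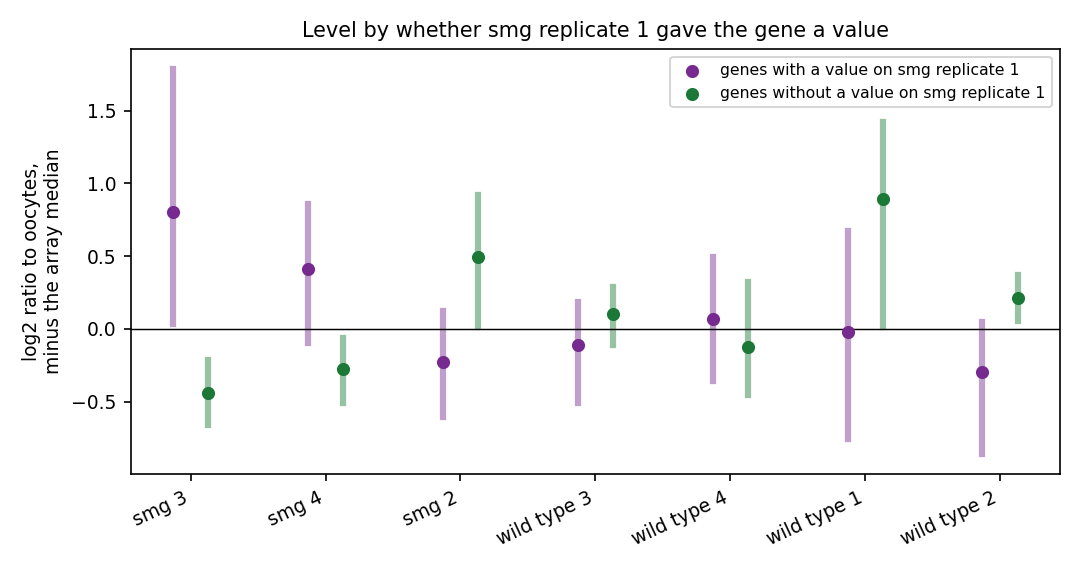
Median log2 ratio to oocytes, minus the array median (vertical axis), for genes with (purple) and without (green) a value on smg replicate 1, on each other array at 2 to 3 h (horizontal axis). Points are medians and bars the middle 50% of genes. The medians with and without a value are 0.81 and -0.44 on smg replicate 3, and -0.23 and 0.49 on smg replicate 2.

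Directly against wild-type embryos, limma called 16 of 5791 genes (0.276%), 11 higher (0.19%) and 5 lower (0.0863%) in smg, while the median difference was 0.17. Unadjusted, 587 genes had a p under 0.05, 501 higher and 86 lower. That split was 319 higher and 284 lower with the shared centre, and 108 and 106 once smg replicate 3 had its sign turned. In none of the 16 did the arrays of the 2 genotypes overlap. That follows largely from their choice by the same difference, and overlap was not counted over all genes. None of the 16 was called in smg against oocytes, where their adjusted p lay between 0.251 and 0.895. Without any one of wild-type replicates 1, 2 or 4, or of smg replicate 4, 0 of the 16 remained called, and without wild-type replicate 3 there were 3.

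The slide sets show where in smg the 11 higher transcripts stood. In 9 of the 11 both earlier smg slides were below 0, and in all 11 both later slides were above it. Among all measured genes these shares were 42.6% and 40.2%. The smg values ran from 0.83 to 3.23 on later and from -1.19 to 0.22 on earlier slides, and the wild-type values from -4.80 to -1.41. The smg arrays were at least 1.24 above the highest wild-type array in each gene. So the earlier smg slides put these transcripts under or at the array median and the later ones above it. Both sets put them above wild type, which follows largely from choosing the genes by that difference, as does the gap.

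The gene dhd, a germline thioredoxin that the egg needs, was at 2.45 and 0.98 on later and -0.87 and -0.56 on earlier smg slides, against -3.39 and -4.17 on later and -4.12 and -4.79 on earlier wild-type slides. Its slide sets differed in smg by 2.43 (adjusted p = 0.00541, 0.0482 with the shared centre). The difference from wild type was 4.62 (SE 0.65, adjusted p = 0.0156). With the sign of smg replicate 3 turned it was 3.39 and did not pass (adjusted p = 0.0569). Gcna, a germ cell peptidase gene, stood at 3.17 and 1.23 on later and -0.61 and -0.06 on earlier smg slides, against -2.77 and -3.10 on later and -3.80 and -3.05 on earlier wild-type slides. The others were drpr, a receptor for the clearance of dying cells, Pxt, a peroxidase of the follicle and egg, Jabba, which holds histones on lipid droplets, the piRNA gene del, superdeath, pes and CG8778. Of the 11 genes 9 were called higher on later smg slides, and 4 with the shared centre, beside 34.9% and 8.45% of all genes.

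The exceptions were yl and piwi. The piRNA effector gene piwi was above 0 on all 4 smg arrays, at 1.37 and 1.24 on later and 0.12 and 0.22 on earlier slides, and below 0 in wild type, at -1.67 and -1.53 on later and -1.55 and -1.80 on earlier slides. Its difference from wild type was 2.37 (SE 0.40, adjusted p = 0.0278), and its slide sets in smg differed by 1.13 (adjusted p = 0.0839). The spots of piwi differed by up to 3.55 on 1 smg array.

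The 5 lower transcripts were above the array median in both genotypes on almost every array. Inx3, a gap junction channel gene of the early epithelium, was at 1.27 and 1.41 on later and 0.97 and 0.32 on earlier smg slides, against 3.81 and 4.09 on later and 4.37 and 3.89 on earlier wild-type slides. Nrt, a cell adhesion gene, was at 1.32 and 2.14 on later and 0.51 and 0.89 on earlier smg slides, against 3.49 and 3.95 on later and 4.23 and 3.02 on earlier wild-type slides. The integrin gene Itgbn was at 0.51 and 0.51 on later and 1.07 and 0.34 on earlier smg slides, against 2.47 and 3.24 on later and 3.32 and 2.56 on earlier wild-type slides. All 4 smg values were above 0 in 4 of the 5 genes, the exception being CG12581 with -0.04 on smg replicate 2. None of the 5 was called between the slide sets in smg. The differences from wild type ran from -3.05 for Inx3 (SE 0.37, adjusted p = 0.0133) to -2.29 for Itgbn (SE 0.37, adjusted p = 0.0278).

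**Figure D4:**
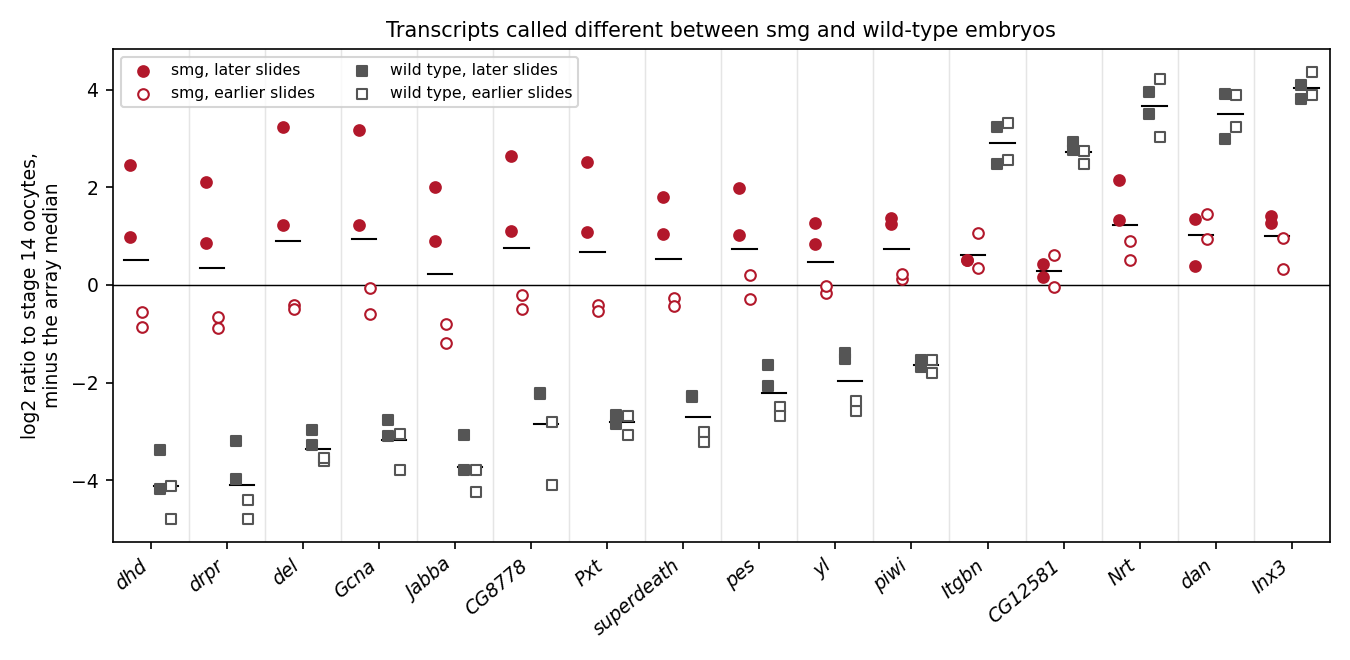
Log2 ratio to oocytes minus the array median (vertical axis) for the 16 genes called different between smg and wild-type embryos (horizontal axis), with 1 point per array and a bar at each group mean. The smg arrays are red circles and the wild-type arrays grey squares, filled for later and open for earlier slides. For dhd the smg arrays lie between -0.87 and 2.45 and the wild-type arrays between -4.79 and -3.39. For Inx3 they lie between 0.32 and 1.41 and between 3.81 and 4.37.

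Maternal groups were described by their medians on each array, beside the 0.13 median of all tested genes in smg. Of 11 tested genes of axis determination and RNA localisation 1 fell, exu, and 0 rose. The list's array medians were 1.96 and 0.35 on later and -1.48 and -1.10 on earlier smg slides, against -0.32 and -0.34 on later and -1.48 and -0.73 on earlier wild-type slides. Of its 9 genes tested between smg slide sets 5 were higher on later slides (5 with the shared centre) and 0 lower, beside the 34.9% and 1.81% of all genes (8.45% and 12.9% with the shared centre). They included osk, the organiser of germ plasm, at 2.11 and 0.20 on later and -1.59 and -1.05 on earlier smg slides. In wild type osk was at -2.55 and -1.72 on later and -3.09 and -3.48 on earlier slides, below every smg array. Overlap was not counted over all genes, and the osk difference of 2.63 did not pass (adjusted p = 0.175).

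Germ plasm and piRNA genes had 0 called members against oocytes, of 8 and 21 tested. The piRNA list had array medians of 1.67 and 0.85 on later and -0.19 and -0.24 on earlier smg slides, against -0.42 and -0.13 on later and -0.76 and -0.83 on earlier wild-type slides. Between smg slide sets 11 of its 20 tested genes were higher on later slides and 0 lower, and with the shared centre 7 were higher and 1 lower. The germ plasm list had 4 higher of 7, and 1 higher and 1 lower with the shared centre. Beside these stand 34.9% higher among all genes, and 8.45% higher and 12.9% lower with the shared centre. Against wild type, 2 of 21 piRNA genes, del and piwi, were called higher, beside 0.19% of all genes. Krimp, a scaffold of the perinuclear piRNA granule, was at 3.78 and 1.32 on later and -0.99 and -0.15 on earlier smg slides, against -2.38 and -2.54 on later and -3.05 and -2.64 on earlier wild-type slides. Its groups did not overlap, which was not counted over all genes, and its difference of 3.64 did not pass (adjusted p = 0.102).

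Genes of meiosis and egg activation had 0 of 14 called against oocytes, and 4 of 10 were higher on later smg slides (1 higher and 1 lower with the shared centre). All tested genes gave 34.9% higher, and 8.45% higher and 12.9% lower with the shared centre. The cytoplasmic poly(A) polymerase gene wisp, needed for translation at egg activation, was at 3.42 and 1.17 on later and -0.93 and 0.22 on earlier smg slides, against -1.05 and -0.79 on later and -1.51 and -0.54 on earlier wild-type slides. The protein kinase gene png, which controls Smaug translation, was at 1.07 and 1.12 on later and 1.12 and 0.00 on earlier smg slides. Its slide sets in smg differed by 0.53 (adjusted p = 0.527), and in wild type it was at -0.67 and 0.14 on later and 0.13 and -1.87 on earlier slides.

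The mRNA decay and repression list holds smg and the machinery it works with. None of its 24 genes was called against oocytes, and their median was 0.55. Of 22 tested between smg slide sets 14 were higher on later slides and 0 lower (6 and 0 with the shared centre). Over all genes the shares were 34.9% and 1.81% (8.45% and 12.9% with the shared centre). Array medians were 1.99 and 0.90 on later and -0.58 and -0.18 on earlier smg slides, against 0.00 and -0.02 on later and -0.69 and -0.31 on earlier wild-type slides. The deadenylase gene Pop2 was at 2.52 and 0.88 on later and -0.76 and -0.36 on earlier smg slides. The CCR4-NOT scaffold gene Not1 was at 3.26 and 1.19 on later and -0.89 and 0.18 on earlier ones. Gw, an effector of miRNA silencing, had the highest list mean of 1.13, with 3.59 and 1.59 on later and -0.58 and -0.07 on earlier smg slides. Upf1, the helicase of nonsense-mediated decay, was level across smg arrays at 1.32 and 1.0 on later and 0.86 and 0.87 on earlier slides, and did not pass (adjusted p = 0.224).

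A set of 20 maternal transcripts had been chosen for its fall in wild type on these same samples, so it is no independent evidence of a direction. In smg its array medians were 2.07 and 0.95 on later and -0.99 and -0.62 on earlier slides, against -2.50 and -2.48 on later and -3.53 and -3.0 on earlier wild-type slides. Against oocytes 2 of the 20 fell in smg, exu and yin, and 14 were below 0 on both earlier and above 0 on both later smg slides. The swallow gene swa, which acts with exu in placing bicoid RNA, was at 0.51 and -0.67 on later and -2.51 and -2.01 on earlier smg slides. In wild type swa was at -2.45 and -2.19 on later and -2.58 and -2.48 on earlier slides, so that only the later smg slides and smg replicate 2 lay above it. Its smg mean of -1.17 did not pass (adjusted p = 0.417).

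Chromatin, chaperone, replication and cell cycle genes had 0 members called against oocytes, of 16, 14, 21 and 18 tested. On later smg slides 11 of 14 chromatin genes, 6 of 12 chaperones, 8 of 15 replication genes and 9 of 14 cell cycle genes were higher than on earlier ones. With the shared centre these were 7, 3, 1 and 2, and 2 chaperones were lower. The share of all genes was 34.9% higher, and with the shared centre 8.45% higher and 12.9% lower. The histone variant gene His2Av was at 3.59 and 1.29 on later and -0.57 and -0.49 on earlier smg slides. Nap1, a histone chaperone, had the lowest mean of the chromatin list at -0.85, with 1.24 and -0.36 on later and -2.37 and -1.92 on earlier smg slides, against -2.66 and -1.75 on later and -3.54 and -2.56 on earlier wild-type slides.

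The housekeeping lists also had 0 called members against oocytes. Their slide-set counts stand beside 34.9% higher and 1.81% lower among all genes (8.45% and 12.9% with the shared centre). Mitochondrial ribosomal and oxidative phosphorylation lists had smaller shares higher and larger shares lower than all genes, with either centre. Departures from those shares were not tested. Of 22 proteasome genes 11 were higher on later smg slides and 0 lower (2 and 2 with the shared centre), and of 20 genes of RNA polymerase II transcription 9 were higher and 0 lower (0 and 4). Mitochondrial ribosomal genes had 6 higher and 3 lower of 33 (1 and 13), and oxidative phosphorylation genes 5 higher and 2 lower of 22 (1 and 6). Cytosolic ribosomal genes had 6 higher of 15, and 0 higher and 1 lower with the shared centre. The mitochondrial ribosomal list lay at 0.02 and -0.25 on later and 0.27 and -0.15 on earlier smg slides, close to the median of each array.

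Lists of early zygotic genes were measured on fewer arrays, since many members had no value on smg replicate 1. Against oocytes 0 of 9 gap and terminal genes, 0 of 7 pair-rule and segment genes, 0 of 10 dorsal-ventral genes and 0 of 10 neurogenic genes were called. Of 13 cellularization genes 1 rose, CG8960, and of 13 junction and adhesion genes 0 did. List medians over genes were 0.36, 0.46, 0.31, 0.74, 0.91 and 0.56, against 0.45, 0.23, 1.07, 1.98, 1.29 and 0.48 in wild type. Against wild type 0 of 9, 0 of 6 and 0 of 9 of the first 3 lists were called. Of 10 neurogenic genes 1 (dan) was lower, and of 13 junction genes 3 (Inx3, Nrt and Itgbn) were lower. Among all 5791 genes tested 0.0863% were lower. The lists were chosen with earlier results of these data known, so these counts are no independent evidence.

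Sry-alpha and Elba3 lay above the array median on every smg array that measured them and below every wild-type array. Sry-alpha, needed for the membranes that form the first cells, was at 1.18 and 1.75 on later smg slides and 1.15 on smg replicate 2, against 4.00 and 2.88 on later and 4.87 on earlier wild-type slides. The difference of -2.56 did not pass (adjusted p = 0.114). The groups did not overlap, but overlap was not counted over all genes. The insulator gene Elba3 was at 1.01 and 2.77 on later slides and 1.43 on smg replicate 2, against 3.49 and 2.93 on later and 4.20 on earlier wild-type slides, and its difference did not pass either (adjusted p = 0.266). The mesoderm gene twi was at 1.12 and 0.58 on later and 0.65 and 0.22 on earlier smg slides, against 1.08 and 2.06 on later and 1.82 and 0.93 on earlier wild-type slides, and its groups overlapped. The gap gene kni was at 1.13 and 0.52 on later and 1.17 and 0.21 on earlier smg slides, and overlapped wild type as well.

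Ance, a peptidase gene of the dorsal embryo, was at -0.27 and 0.17 on later smg slides and 0.74 on smg replicate 2, against 1.57 and 2.12 on later and 3.15 and 2.23 on earlier wild-type slides. The homeobox gene cad, which has maternal and zygotic transcripts, was at 0.60 and -0.68 on later and -2.63 and -1.25 on earlier smg slides, with a mean of -0.99, the lowest of the gap and terminal list. It overlapped wild type, at -1.77 and -1.65 on later and -1.94 and -1.13 on earlier slides. Among genes of later muscle, nerve and gut, 0 of 7 tested were called, and their median was 0.20.

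**Figure D5:**
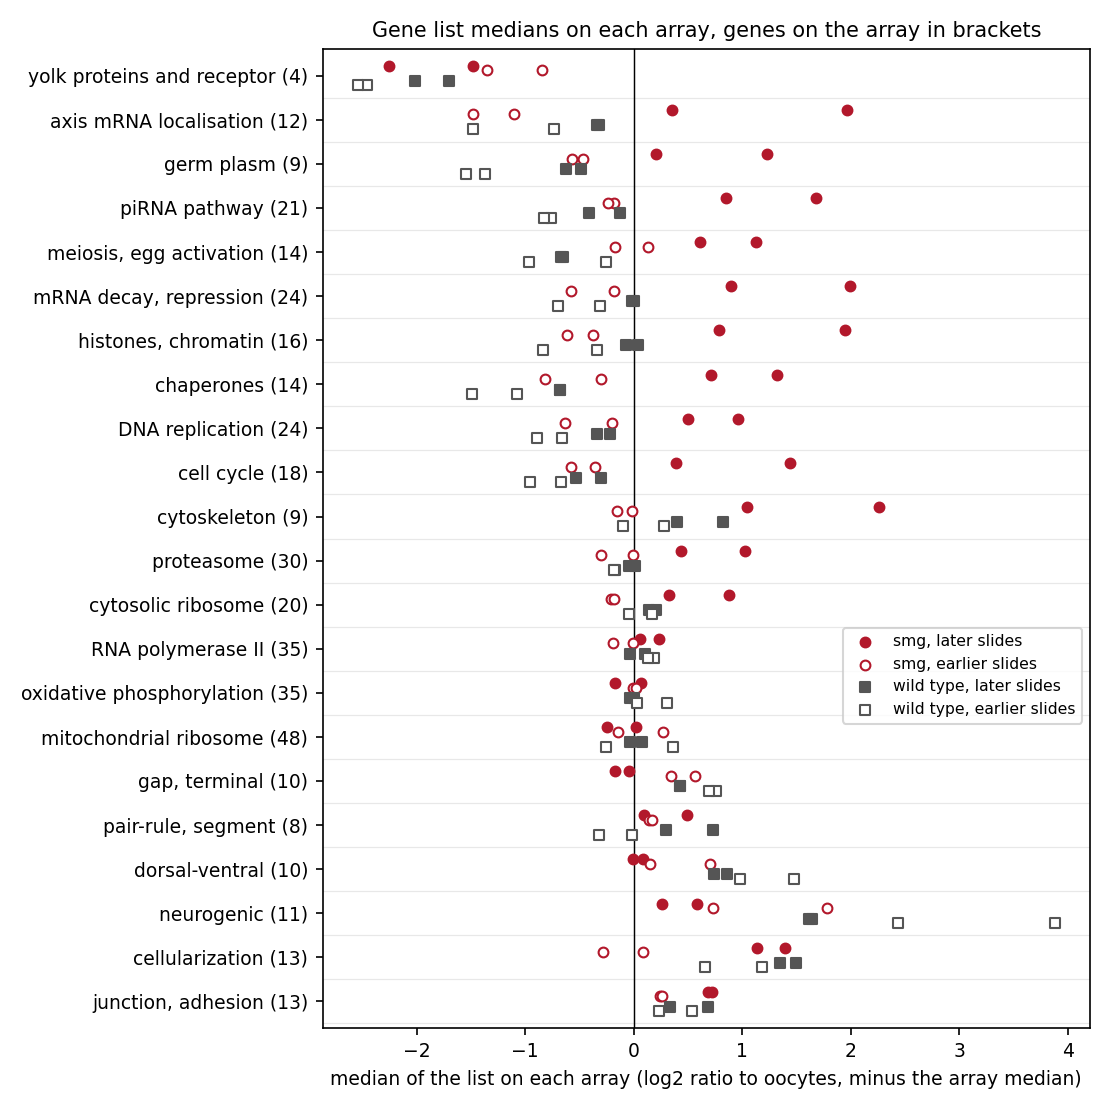
Median log2 ratio to oocytes, minus the array median (horizontal axis), of 22 gene lists (vertical axis), with 1 point per array. The smg arrays are red circles and the wild-type arrays grey squares, filled for later and open for earlier slides. From the axis list to the cytosolic ribosome list both later smg slides lie to the right of both earlier ones, and the yolk list lies below 0 on all arrays.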

How the data were processed

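Values of the 2-colour cDNA arrays came from the deposited table of log2 ratios, with 1 ratio for each spot on each array. Per the submitters' design text, the authors quantified images with QuantArray and made ratios in GeneTraffic with rank-invariant LOWESS. How background was corrected and spots were filtered is not stated there. Base 2 was inferred, since the lowest value is -11.92 and natural logarithms of 16-bit ratios cannot pass 11.1 in size. Per the labels, each channel of the arrays at 2 to 3 h held 60 µg of RNA and the oocyte RNA had the same dye throughout, so a dye bias stays in each ratio to oocytes. No intensities were used, so signal over background is unknown, and the number of arrays limits the precision.

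Of 27648 spots, 15116 carried a single gene in the platform annotation, 102 carried several and 12430 were not listed there. Names were updated through RefSeq (6692 of 6793 genes matched), and no positions are given because the table names no genome build. Spots were averaged per gene and each array was centred on its gene median. Means were fitted in limma 3.58.1 (lmFit, then eBayes; R 4.3.3) over the 8 arrays at 2 to 3 h, two-sided, with Benjamini-Hochberg adjustment over all genes tested and a threshold of 0.05. Slide sets were compared in a fit of genotype by slide set over genes measured on all 4 arrays of the genotype. The fit of smg against oocytes was tried on simulated data with independent noise on each array. The simulation held no slide-set difference, so it does not check the fits under that structure.

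Named genes were smg, called genes, genes beyond 1 on every smg array, the 12 nearest the median, the largest differences between genotypes and slide sets, and called or extreme list members. Other genes described with values, among them osk, krimp, Pop2, Sry-alpha and Ance, were picked outside these rules with results of these data known. Members, lists and tests were chosen with earlier results of these data known. Alternatives changed the centring, scale, filter, spot summary, block, array weights, the sign of smg replicate 3 and the arrays used.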

Additional observations from a re-analysis of the deposited data

Results flagged for a closer look

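In 6 of 156 sets of 4 arrays, 1 array lay far from the other 3, with a gap over 0.829 of the set's range. Chance flags about 1 in 20 such sets. In smg these were Taldo at -0.287 on replicate 2, NetB at 1.29 on replicate 1 and bnb at 0.731 on replicate 2, all earlier slides. In wild-type embryos they were Cog6 at -0.872 on replicate 2, Traf4 at 4.71 on replicate 1 and Septin2 at 0.983 on replicate 4. The piRNA gene piwi lay above 0 on every smg array and below 0 on every wild-type array, and the difference of 2.37 passed the test (limma adjusted p = 0.0278).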

How the results depend on the processing

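No paired analysis was possible because replicate numbers only order the arrays and name no pairs. The count of 5 genes called in smg against oocytes became 0 as deposited, 0 when arrays were scaled to a common spread, 0 with the sign of smg replicate 3 turned, 15 with the centre over shared genes, 1 with the 4 smg arrays alone, 33 with the slide set as a block, 2303 with array weights, 140 on earlier and 1282 on later slides. Leaving out 1 array gave 1 to 54. Without both low-median arrays, an alternative added after seeing the data, it was 1. The 16 genes called between smg and wild type became 0 as deposited, 152 when scaled, 235 with the block, 2154 with weights, 2 with the sign turned (Inx3 and CG12581), 0 to 233 with 1 array left out, and 0 without both low-median arrays. All 16 were among the 152, the 235 and the 2154. The 1317 slide-set calls became 0 as deposited, 0 with the sign turned, and 765 with the shared centre, added later. Counts on every smg array moved too. Below -1, the 5 genes became 21 with the shared centre, 3 when scaled, 0 with the sign turned and 5 to 34 with 1 array left out. Above 1, the 2 genes became 0 as deposited, 1 with the shared centre, 1 when scaled, 0 with the sign turned and 3 to 13 with 1 array left out. Within 1, the 991 genes became 0 as deposited, 1607 when scaled and 1059 to 3195 with 1 array left out. Of 25 lists, 21 had medians above that of all genes, which became 11 as deposited, 6 with the sign turned and 11 to 22 with 1 array left out. None of the 21 genes called against oocytes or wild type reversed under any of these alternatives. Of single-gene values in smg against oocytes, 1403 kept their side of the threshold or moved by less than 1 SD, 77 moved further and 36 lost a call. Yp1 stayed called in 16 of 19 alternatives, yin and exu in 13, Yp3 in 8, and CG8960 in 5 of 15. The causes were not tested.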

Other observations

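Unfertilized w1118 eggs aged 4 to 6 h, which have no zygotic nuclei, gave values for the same genes on 3 arrays, and no test was made with them. Their dyes were the other way round from the arrays at 2 to 3 h, and a dye bias would differ between the 2 sets. Yp1 stood at -2.50, -3.35 and -3.06 and yin at -2.68, -2.70 and -2.84 in these eggs. For exu they had -1.77, -1.40 and -2.57, and for Yp3 -1.24, -2.21 and -1.26. The 4 genes that fell in smg embryos were therefore below the array median in eggs as well. The 2 egg arrays that measured dhd gave -2.83 and -3.41, below its 4 smg values. In these eggs piwi was at -1.26, -1.19 and -1.45, below its 4 smg values too. Inx3 was at -0.08, -0.57 and -0.18, below its 4 smg values and its 4 wild-type embryo values.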
